A study of Mus musculus with 6 samples.

Results

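Heat shock proteins are molecular chaperones: they hold, fold or refold other proteins and limit their aggregation. Some are made in every cell at all times, while others are made mainly after heat, oxidative stress or a load of misfolded protein, when the transcription factor HSF1 binds heat shock elements, arrays of the letters GAA and their complement TTC, in front of their genes. Cytosolic HSP70 works in a cycle with J-domain proteins, which start it, and nucleotide exchange factors, which reset it, and passes some clients on to HSP90. In mitochondria, the HSP60 barrel and its HSP10 lid do a similar task for imported proteins.

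The genes described here are 10 heat shock protein genes of the mouse, chosen by name and found by symbol among the 21959 genes of the deposited table. They comprise 6 stress-inducible genes (Hspa1a, Hspa1b, Hsp90aa1, Dnajb1, Hsph1 and Hspb1) and 4 constitutive ones (Hspa8, Hsp90ab1, Hspd1 and Hspe1). This division is textbook background, and Hspd1 and Hspe1 can also be induced. RNA was sequenced from cells labelled neutrophil, from mouse hepatocellular carcinoma models made with the hepatoma cell line Hepa1-6, in 3 libraries labelled GPR35-positive and 3 labelled GPR35-negative. GPR35 is a G protein-coupled receptor; the labels as used here give neither the strain nor the sorting method. Separate animals for the replicates are not stated, so a p-value reflects only how far these samples spread, and that spread may be technical.

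Values are FPKM, fragments per kilobase of gene, scaled to the reads of the library. The libraries held 15742743 to 18314104 reads assigned to genes. Gpr35 was at 20.2 ± 1.89 FPKM in GPR35-positive and 1.57 ± 0.398 FPKM in GPR35-negative libraries (SD, n = 3 each). Markers of the labelled cell type, neutrophils, and of other cells moved with the groups. The sum of 15 neutrophil markers was 10350.1 FPKM in GPR35-positive but only 1033 FPKM in GPR35-negative libraries. For 12 macrophage and monocyte markers the sum was 966 FPKM in GPR35-positive and 45.7 FPKM in GPR35-negative libraries. The sum of 16 markers of hepatocytes or hepatoma cells went the other way, with 17394 FPKM in GPR35-positive and 26412 FPKM in GPR35-negative libraries. In GPR35-positive libraries the neutrophil sums ranged from 9828 to 10786, the macrophage sums from 949 to 981 and the hepatoma sums from 17122 to 17557 FPKM. In GPR35-negative libraries they ranged from 901 to 1151, from 38.2 to 52.5 and from 25615 to 27049 FPKM. Endothelial and fibroblast markers, 10 in all, summed to 36.7 to 43.0 FPKM in GPR35-positive and 16.5 to 21.5 FPKM in GPR35-negative libraries, with all 7 tested higher. The 10 T, NK and B cell markers summed to 35.0 to 36.9 FPKM in GPR35-positive and 42.9 to 55.6 FPKM in GPR35-negative libraries, with 1 of 4 tested, Gzma, lower. No marker of these lists was at 0 in all 6 libraries. All 15 neutrophil markers and all 10 macrophage markers tested were higher in GPR35-positive libraries. Of the 16 hepatoma markers, 14 were lower, 1 was higher and 1 did not pass. Over all genes tested, 23.3% were higher and 45.5% lower. Testing required 1 FPKM in at least 3 libraries, which a gene high only in GPR35-positive libraries meets through those alone. With 1 FPKM required in all 6 libraries, 14 neutrophil, 5 macrophage and 5 endothelial and fibroblast markers were left, all higher. A difference in the share of cells and a difference in RNA per cell cannot be told apart in such libraries, and the part of these markers in the results below was not tested.

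Promoter sequences show which of the genes carry exact matches to short forms of a heat shock element next to their start. They are from RefSeq, build GRCm38.p6, which held an entry for 7 of the 10 genes; Hspa8, Hsp90aa1 and Hsp90ab1 had none. The motifs searched were GAANNTTC and TTCNNGAA, each of which reads the same on both strands, in the 250 bases before each annotated start. Arrays with a mismatch or a gap were not searched, so a gene without a match may still hold such an array. Capitals mark a match, and all sequences run 5′ to 3′ on the strand of the gene. Hspa1a is shown because it rose most of the 10, Hspb1 because it also rose, Hspe1 and Hsph1 because they fell, and Dnajb1 as a gene with no match that did not pass the test.
Hspa1a, 250 bases before the start: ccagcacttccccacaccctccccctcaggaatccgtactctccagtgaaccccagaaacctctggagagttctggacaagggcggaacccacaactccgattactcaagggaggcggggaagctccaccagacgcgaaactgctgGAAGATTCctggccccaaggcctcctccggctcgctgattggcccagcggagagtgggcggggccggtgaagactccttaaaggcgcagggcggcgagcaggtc
Hspb1, 130 to 81 bases before the start: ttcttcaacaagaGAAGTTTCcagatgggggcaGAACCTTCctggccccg
Hspe1, 94 to 65 bases before the start: gtccgTTCTAGAACCTTCCGGAAggccccg
Hsph1, 44 to 15 bases before the start: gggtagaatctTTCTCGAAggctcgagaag
Dnajb1, 150 bases before the start: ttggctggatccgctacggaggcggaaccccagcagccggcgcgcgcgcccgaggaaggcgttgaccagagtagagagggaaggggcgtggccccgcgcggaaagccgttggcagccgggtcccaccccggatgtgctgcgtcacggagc

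The Hspa1a stretch lies on the reverse strand at chr17:34972157-34972406. The Hspb1 stretch is on the forward strand at chr5:135887789-135887838, the Hspe1 stretch on the forward strand at chr1:55088054-55088083, the Hsph1 stretch on the reverse strand at chr5:149636351-149636380 and the Dnajb1 stretch on the forward strand at chr8:83608025-83608174. The same 250 bases of Hspa1b differed from those of Hspa1a at 3 positions and held the same match at the same place. Hspa1a and Hspa1b thus had 1 match each, Hspb1 had 2 that do not overlap, and Hsph1 had 1. The Hsph1 match lay 54 to 47 bases before its second annotated start. By the gene coordinates given below, from another annotation, Hsph1 starts at 149636376, so its match at 149636362-149636369 lies inside the gene. The Hspe1 stretch held 3 overlapping matches that together form an unbroken array of 4 blocks. The same array stood before the second annotated start of Hspd1, which is read from the opposite strand. The first annotated start of Hspd1 had no match. By the gene coordinates given below, Hspd1 starts at 55088243, so the array at 55088059-55088076 lies inside that gene. Neither annotated start of Dnajb1 had a match. Either motif was present in 12.84% of the 32851 promoters of the same length, and the longer GAANNTTCNNGAA or its complement TTCNNGAANNTTC in 0.4657%. Genes that rose and genes that fell both held matches. A match is a description of the letters and not of a binding site.

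Inducible HSP70 rose and constitutive HSP70 did not. Hspa1a, the stress-inducible cytosolic HSP70, was 5.99-fold higher in GPR35-positive libraries, while Hspa8, the constitutive HSC70 and the most abundant of the 10, did not pass the test. Hspa1a had 45.3, 57.4 and 48.8 FPKM in the GPR35-positive libraries, against 9.11, 9.19 and 7.001 FPKM in GPR35-negative libraries. Every GPR35-positive library lay far above every GPR35-negative one. Its level averaged 50.5 ± 6.23 FPKM in GPR35-positive and 8.43 ± 1.24 FPKM in GPR35-negative libraries (SD, n = 3 each). In log2(FPKM + 1), a scale on which changes of low genes come out too small, the fold change was 2.45 (SE 0.12, adjusted p = 2.63e-08 by limma). This put it at rank 276 from the top among the 10060 genes tested. The groups did not overlap for 72.5% of those genes, with GPR35-positive libraries higher for 24.3% and lower for 48.2%, and 68.8% passed the test in either direction. Hspa1a lies on the reverse strand of chromosome 17 from 34969190 to 34972156 in GRCm38.

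Hspa1b, the neighbouring copy that encodes nearly the same protein, lies on the same strand from 34956436 to 34959238. Its reads numbered 67, 64 and 74 in the GPR35-positive libraries, against 14, 15 and 11 reads in GPR35-negative libraries. Counting error alone gave exact 95% Poisson limits between 49.3 and 92.9 reads for the GPR35-positive libraries, and between 5.49 and 24.7 reads for the GPR35-negative ones. These counts correspond to 1.40, 1.40 and 1.44 FPKM in GPR35-positive and to 0.290, 0.316 and 0.249 FPKM in GPR35-negative libraries. The groups did not overlap, and the level was 4.95-fold higher in GPR35-positive libraries (log2 fold change 0.91, SE 0.07, limma adjusted p = 1.2e-06). Hspa1b passed the filter of 1 FPKM in 3 libraries only through the GPR35-positive ones, so its call is no support for a pattern. The log2 fold change was 1.98 with a pseudocount of 0.1 and 2.24 with limma-voom on the reads.

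Hspa1a and Hspa1b share much of their sequence. Of all 100-base windows of the longest coding transcript of each in GENCODE M21, 48.64% of those of Hspa1a and 49.93% of those of Hspa1b occur in another gene, either the other copy or Hspa1l. Reads from such windows may have been dropped or split in the authors' counting, so the level of both genes and their ratio are uncertain. Hspa1b was listed at 2.44% to 3.08% of the Hspa1a level in GPR35-positive and 3.18% to 3.56% in GPR35-negative libraries. Another annotated gene, Gm20481, overlaps Hspa1a on the opposite strand, and the sources used here do not say whether counting used strand.

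Hspa8, on chromosome 9 from 40800984 to 40810087, had 1292, 1169 and 1157 FPKM in the GPR35-positive libraries, against 1343, 1309 and 1359.8 FPKM in GPR35-negative libraries. The ranges were close and did not overlap. The log2 fold change was −0.15 (SE 0.07) and did not pass (limma adjusted p = 0.081), near the median of −0.19 over all genes tested. Without GPR35-positive replicate 1 it passed (−0.20, adjusted p = 0.0371) and with limma-voom (−0.18, adjusted p = 0.0221), and was 0.05 with median-of-ratios scaling (adjusted p = 0.604). Of its 100-base windows, 62.83% occur in 7 other annotated genes, so its level is uncertain as well. Hspa1a and Hspa1b together made up 3.49%, 4.79% and 4.16% of the summed FPKM of the 3 HSP70 genes in the GPR35-positive libraries, against 0.695%, 0.721% and 0.530% in GPR35-negative libraries.

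**Figure D1:**
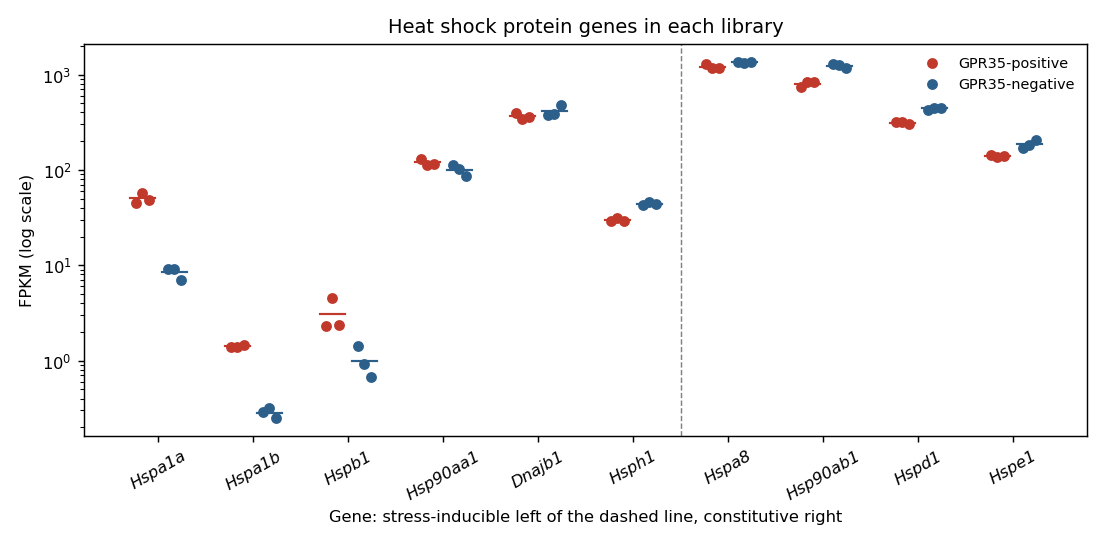
FPKM of each heat shock protein gene in each library on a log axis, GPR35-positive in red to the left of GPR35-negative in blue, with horizontal bars at the group means (n = 3 each). Hspa1a, Hspa1b and Hspb1 stand higher in the GPR35-positive libraries, Hsph1, Hsp90ab1, Hspd1 and Hspe1 stand lower, and the Dnajb1 groups overlap.

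The cytosolic HSP90 genes changed in opposite directions. Hsp90ab1, the constitutive cytosolic HSP90, was lower in GPR35-positive libraries, at 0.647 of its GPR35-negative level, whereas Hsp90aa1, its stress-inducible counterpart, was slightly higher. Hsp90ab1 had 744, 825 and 836 FPKM in the GPR35-positive libraries, against 1304, 1253 and 1157 FPKM in the GPR35-negative libraries. The groups were well apart, with means of 801 ± 50.4 FPKM in GPR35-positive and 1238 ± 74.7 FPKM in GPR35-negative libraries (SD, n = 3 each). Its log2 fold change was −0.63 (SE 0.08, limma adjusted p = 6.16e-05), the largest fall among the 10. The gene lies on chromosome 17 from 45567775 to 45573271, and none of its 100-base windows occurs in another gene.

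Hsp90aa1, on chromosome 12 from 110690605 to 110702728, had 130.1, 113.3 and 115.3 FPKM in the GPR35-positive libraries, against 113.2, 103.2 and 86.0 FPKM in GPR35-negative libraries. The lowest GPR35-positive library was barely above the highest GPR35-negative one. Its log2 fold change was 0.25 (SE 0.10, limma adjusted p = 0.048), and it was positive under all 12 alternatives but passed under only 4 of them, with adjusted p between 0.00336 and 0.155. The call ended when any library other than GPR35-negative replicate 1 was left out, and the lowest value was 0.14, found without GPR35-negative replicate 3. Of its 100-base windows, 47.55% occur in 3 other annotated genes. Hsp90aa1 made up 14.9%, 12.1% and 12.1% of the summed FPKM of the pair in the GPR35-positive libraries, against 7.99%, 7.61% and 6.92% in GPR35-negative libraries.

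Neither of the inducible HSP70 partners among the 10 genes rose. Hsph1, the HSP110 protein that acts as a nucleotide exchange factor and is a known HSF1 target, was lower in GPR35-positive libraries, and Dnajb1, the inducible HSP40 that stimulates the HSP70 ATPase, did not pass the test. Hsph1 had 28.8, 31.1 and 29.2 FPKM in the GPR35-positive libraries, against 43.1, 45.7 and 43.4 FPKM in GPR35-negative libraries. The spread within each group was small beside the gap, and the log2 fold change was −0.56 (SE 0.07, limma adjusted p = 5.5e-05). Hsph1 lies on chromosome 5 from 149614287 to 149636376.

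Dnajb1, on chromosome 8 from 83608193 to 83612653, had 399, 338 and 355 FPKM in the GPR35-positive libraries, against 374, 386 and 475 FPKM in the GPR35-negative libraries. The groups overlapped, since GPR35-positive replicate 1 was above 2 of the GPR35-negative libraries. The log2 fold change was −0.17 (SE 0.10, limma adjusted p = 0.149), close to the median of all genes tested, and 0.03 with median-of-ratios scaling. Dnajb1 was the most abundant of the inducible genes in all 6 libraries, and no 100-base window of Dnajb1 or Hsph1 occurs in another gene.

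Hspb1, which encodes the small heat shock protein HSP25 (HSP27 in human) that holds unfolded proteins, was near the filter and rose. Its reads numbered 41, 77 and 45 in the GPR35-positive libraries, against 25, 16 and 11 reads in GPR35-negative libraries. The levels were 2.32, 4.57 and 2.38 FPKM in GPR35-positive and 1.41, 0.916 and 0.678 FPKM in GPR35-negative libraries, and the groups did not overlap. Replicate 2 was the highest GPR35-positive library by far. The level was 3.09-fold higher in GPR35-positive libraries (log2 fold change 1.01, SE 0.20, limma adjusted p = 0.00122), and the log2 fold change was 0.76 without GPR35-positive replicate 2. Its place is chromosome 5 from 135887919 to 135889563. Only 1 GPR35-negative library reached the filter of 1 FPKM, so the gene passed through the GPR35-positive ones and its call is no support for a pattern; 42.72% of its 100-base windows occur in 1 annotated pseudogene.

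The mitochondrial chaperonin pair fell together. Hspd1, which encodes HSP60, and Hspe1, which encodes HSP10, lie head to head on chromosome 1, Hspd1 on the reverse strand from 55077835 to 55088243 and Hspe1 on the forward strand from 55088132 to 55091307. Hspd1 had 318, 319 and 301 FPKM in the GPR35-positive libraries, against 429, 449.8 and 448 FPKM in GPR35-negative libraries. No library came near the other group, and the log2 fold change was −0.50 (SE 0.06, limma adjusted p = 7.31e-05).

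Hspe1 had 143, 137 and 140.4 FPKM in the GPR35-positive libraries, against 169, 181 and 205.6 FPKM in GPR35-negative libraries. The groups did not overlap, and the GPR35-negative libraries were the more scattered. Its log2 fold change was −0.40 (SE 0.08, limma adjusted p = 0.00142), whereas median-of-ratios scaling gave −0.20 and no call (limma adjusted p = 0.0642). The ends of both genes overlap on opposite strands, and reads there could belong to either. Of their 100-base windows, 26.94% of those of Hspd1 and 20.44% of those of Hspe1 occur in other annotated genes. Their levels and their ratio are thus uncertain as well. The ratios of mean FPKM were 0.707 for Hspd1 and 0.756 for Hspe1, beside 0.659 for the summed hepatocyte and hepatoma markers. The part of hepatocytes or hepatoma cells in these falls was not tested.

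Of the 10 genes, 8 were at 1 FPKM or more in all 6 libraries. Among them 2, Hspa1a and Hsp90aa1, rose, 4 (Hsph1, Hsp90ab1, Hspd1 and Hspe1) fell, and Hspa8 and Dnajb1 did not pass. Of the 8866 tested genes at such levels, 18.7% rose and 48.7% fell, so these counts are near the background. The 4 inducible genes among the 8 held both rises and 1 fall, with a median log2 fold change of 0.04, while the 4 constitutive ones held 0 rises and 3 falls, with a median of −0.45, against −0.22 for the 8866 genes. Over all 10060 genes tested, 23.3% were called higher and 45.5% lower. The median of all genes tested shifted to −0.03 under median-of-ratios scaling, and with it 29.0% were called higher and 23.9% lower. Relative to the median of −0.19, Hspa8 and Dnajb1 stood slightly above it, and Hsph1, Hsp90ab1, Hspd1 and Hspe1 below it.

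**Figure D2:**
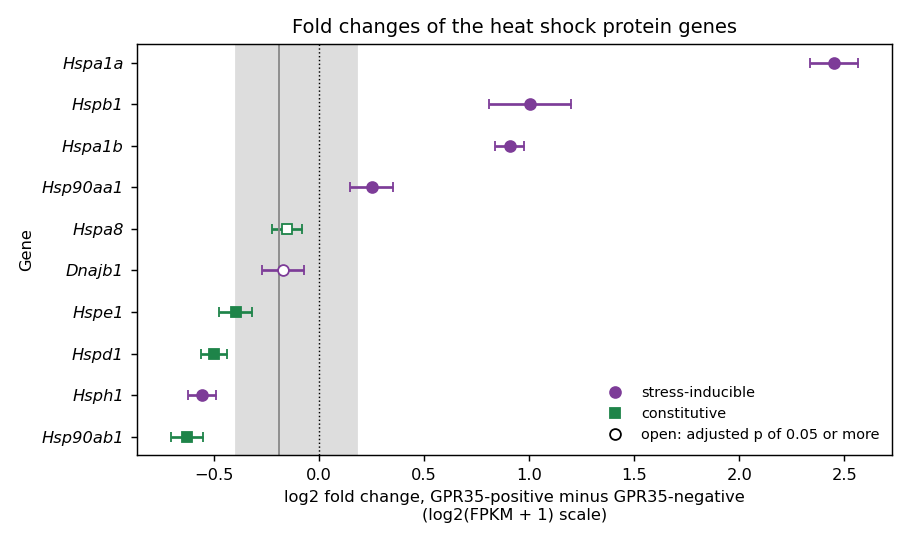
Log2 fold change of each gene, GPR35-positive minus GPR35-negative, with bars of 1 SE from limma; circles are stress-inducible and squares constitutive genes, and open symbols did not pass an adjusted p of 0.05. The grey line and band are the median and the middle of the distribution (between the quartiles, −0.39 and 0.18) of all genes tested; Hspa1a at 2.45 stands farthest from it, and Hspa8 and Dnajb1 lie next to the line.

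Ratios within a library do not depend on how the library was scaled. The log2 ratio of Hspa1a plus Hspa1b to Hspa8 was −4.79, −4.31 and −4.53 in the GPR35-positive libraries, against −7.16, −7.11 and −7.55 in GPR35-negative libraries. The groups were far apart, with a difference of 2.73, a ratio 6.63-fold higher in GPR35-positive libraries. The log2 ratio of Hsp90aa1 to Hsp90ab1 was −2.51, −2.86 and −2.86 in the GPR35-positive libraries, against −3.53, −3.60 and −3.75 in GPR35-negative libraries. Again the groups did not overlap, and the difference was 0.88, or 1.84-fold.

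The log2 ratio of Hspe1 to Hspd1 was −1.15, −1.22 and −1.10 in the GPR35-positive libraries, against −1.34, −1.31 and −1.12 in GPR35-negative libraries. Here the groups overlapped, and the difference was 0.10. It ranged from 0.0601 without GPR35-negative replicate 1 to 0.170 without GPR35-negative replicate 3, where the groups no longer overlapped (exact permutation p = 0.1, the smallest possible). The two-sided exact permutation p was 0.1 for both inducible-to-constitutive ratios and 0.3 for Hspe1 to Hspd1, or 0.15, 0.15 and 0.3 adjusted over the 3 ratios. A p of 0.1 is the smallest that 3 against 3 libraries allow, so no ratio could pass. Summed over the group, the inducible genes were at 568 ± 33.8 FPKM in GPR35-positive and 566 ± 39.6 FPKM in GPR35-negative libraries (SD, n = 3 each), mostly Dnajb1. The constitutive genes were at 2460 ± 32.0 FPKM in GPR35-positive and 3203 ± 38.2 FPKM in GPR35-negative libraries. The inducible share of the sum was thus 18.2% to 19.6% in GPR35-positive and 14.3% to 16.2% in GPR35-negative libraries. Without Dnajb1, the inducible genes summed to 204 ± 6.20 FPKM in GPR35-positive and 155 ± 15.5 FPKM in GPR35-negative libraries.

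**Figure D3:**
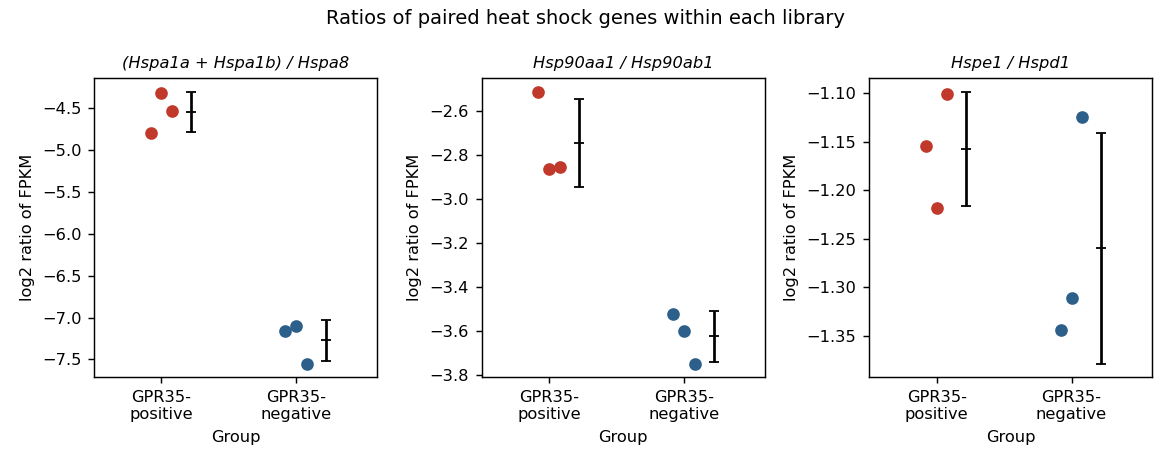
Log2 ratio of FPKM within each library for the HSP70, HSP90 and chaperonin pairs, GPR35-positive in red and GPR35-negative in blue, with black marks for the mean and SD (n = 3 each); each panel has its own vertical axis. The groups are apart for the first 2 ratios, by 2.73 and 0.88, and overlap for Hspe1 to Hspd1.

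The order of the levels was similar in both groups. In GPR35-positive libraries it ran, by mean FPKM, from Hspa8 through Hsp90ab1, Dnajb1, Hspd1, Hspe1, Hsp90aa1, Hspa1a, Hsph1 and Hspb1 to Hspa1b, and no neighbours in that order overlapped over their libraries. In GPR35-negative libraries Hspd1 stood before Dnajb1, with overlapping ranges, and Hsph1 before Hspa1a, with ranges apart. The order between genes depends on the length used for FPKM. For Hsph1 the exon length was 7266 bases and the longest coding transcript 3802, while both were 2967 bases for Hspa1a. All 10 genes together took 1.10%, 1.05% and 1.04% of the reads in the GPR35-positive libraries, against 1.31%, 1.29% and 1.30% in GPR35-negative libraries.

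Other genes of the heat shock system mostly fell or did not pass, in shares to be read against the 18.7% and 48.7% given above. Counts with median-of-ratios scaling are to be read against 29.0% higher and 23.9% lower. Hsf1, the master regulator of the response, fell to 9.51 ± 0.38 FPKM in the GPR35-positive libraries, against 12.3 ± 0.61 FPKM in GPR35-negative libraries (SD, n = 3 each, limma adjusted p = 0.00275). Median-of-ratios scaling ended this call (−0.16, limma adjusted p = 0.102). Among genes for heat shock factors and their binding protein, 3 were tested. The factor genes Hsf1 and Hsf2 fell (log2 −0.34 and −0.28). Hsbp1, which encodes an HSF1-binding protein, did not pass at −0.12 (0.07 with median-of-ratios scaling). Hsf4 and Hsf5 were below the filter. The Hsf2 call ended with no filter (limma adjusted p = 0.0628), with median-of-ratios scaling (0.345), and without GPR35-positive replicate 2 (0.0774), GPR35-positive replicate 3 (0.0843), GPR35-negative replicate 1 (0.103) or GPR35-negative replicate 2 (0.0844).

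The 8 other HSP70 and HSP110 genes tested held 1 rise and 3 falls, and their median was −0.11; with median-of-ratios scaling they held 3 rises and 2 falls, and the median turned to 0.08. Hspa2, an HSP70 best known from testis, rose by 0.72, at 4.67 FPKM in GPR35-positive and 2.46 FPKM in GPR35-negative libraries (limma adjusted p = 7.57e-05). Hspa9, the mitochondrial HSP70, and Hspa4, an HSP110 relative, fell by 0.48 on the log2 scale each, and Hspa5, the HSP70 of the endoplasmic reticulum, fell by 0.23. The HSP90 relatives also fell, Hsp90b1 of the endoplasmic reticulum by 0.28 and Trap1 of mitochondria by 0.51. The Hspa5 call ended with median-of-ratios scaling (−0.03, limma adjusted p = 0.717) and without GPR35-positive replicate 3 (0.0541) or GPR35-negative replicate 2 (0.0508). The Hsp90b1 call ended with median-of-ratios scaling (−0.08, limma adjusted p = 0.488), with no filter (0.0667) and without GPR35-positive replicate 2 (0.0563) or GPR35-positive replicate 3 (0.0544).

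Of 32 other J-domain genes at 1 FPKM or more in all libraries, 4 rose and 15 fell, with a median of −0.19. With median-of-ratios scaling, 5 of all 33 tested, Dnajb13 included, were higher and 4 lower, and the median was −0.02. Dnajb9, a J-domain protein of the endoplasmic reticulum, rose by a log2 fold change of 0.97, at 160.0 ± 7.36 FPKM in GPR35-positive and 81.2 ± 4.75 FPKM in GPR35-negative libraries (SD, n = 3 each, limma adjusted p = 8.48e-07). Dnajc10, a disulfide reductase of the endoplasmic reticulum, fell by 0.67 and Dnaja3, a partner of mitochondrial HSP70, by 0.59. Dnajb13 rose by 0.73 but passed the filter only through the GPR35-positive libraries, at 1.41 FPKM there against 0.46 FPKM in the GPR35-negative ones. Of the small heat shock genes, 3 of 8 passed the filter, and Hspb8 and Hspb6 fell by 0.74 and 0.47, in contrast to Hspb1, while Cryab stood at −0.10 (limma adjusted p = 0.462), and at 0.06 with median-of-ratios scaling and 0.02 without GPR35-positive replicate 2. Hspb3, Hspb9 and Cryaa were at 0 in all libraries.

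Co-chaperones fell more often than not. The 24 tested held 0 rises and 15 falls (median −0.30). Of the 8866 genes at 1 FPKM or more in all 6 libraries, 18.7% rose and 48.7% fell (median −0.22). Fkbp4, an immunophilin of HSP90 complexes, fell to 210 ± 9.26 FPKM in the GPR35-positive libraries, against 334 ± 32.0 FPKM in GPR35-negative libraries (SD, n = 3 each, log2 −0.66, limma adjusted p = 5.94e-05). The BAG-domain genes Bag6 and Bag2 fell by 0.61 and 0.60, and Hspbp1, an exchange factor of HSP70, by 0.49. Of 14 genes of the TRiC chaperonin, which folds actin and tubulin, and of its partner prefoldin, 0 rose and 10 fell, with a median of −0.35. All 8 TRiC subunit genes were among the 10, with Cct6a, Cct5, Cct7 and Cct8 at −0.62, −0.47, −0.44 and −0.39. Of 10 other mitochondrial chaperone and protease genes 1, Yme1l1, rose and 5 fell, with Clpp and Lonp1, proteases of the mitochondrial matrix, at −0.55 and −0.54, and Grpel2 and Htra2 at −0.45 each. With median-of-ratios scaling the calls over the 9 lists fell to 42, against 67 as deposited, and both sets of calls included rises. With that scaling 2 co-chaperones were higher and 6 lower, and 1 TRiC or prefoldin gene was higher and 5 lower. Of the other mitochondrial genes 2 were higher and 4 lower, beside 29.0% higher and 23.9% lower over all genes tested.

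Immediate early genes, which also respond when tissue is dissociated, moved in both directions. The 13 tested held 4 rises and 2 falls (median −0.05), or 4 rises and 1 fall with median-of-ratios scaling (median 0.15). Nr4a1, a nuclear receptor, rose 2.63-fold (limma adjusted p = 3.89e-08), at 214 and 81.2 FPKM in GPR35-positive and GPR35-negative libraries, and the mRNA-decay factor Zfp36 rose by 0.82 and the phosphatase Dusp1 by 0.30 on the log2 scale, while Fosb fell by 0.60. Their summed level was 6750 to 7337 FPKM in GPR35-positive and 6108 to 6503 FPKM in GPR35-negative libraries. The part of sample handling in the heat shock values was not tested.

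**Figure D4:**
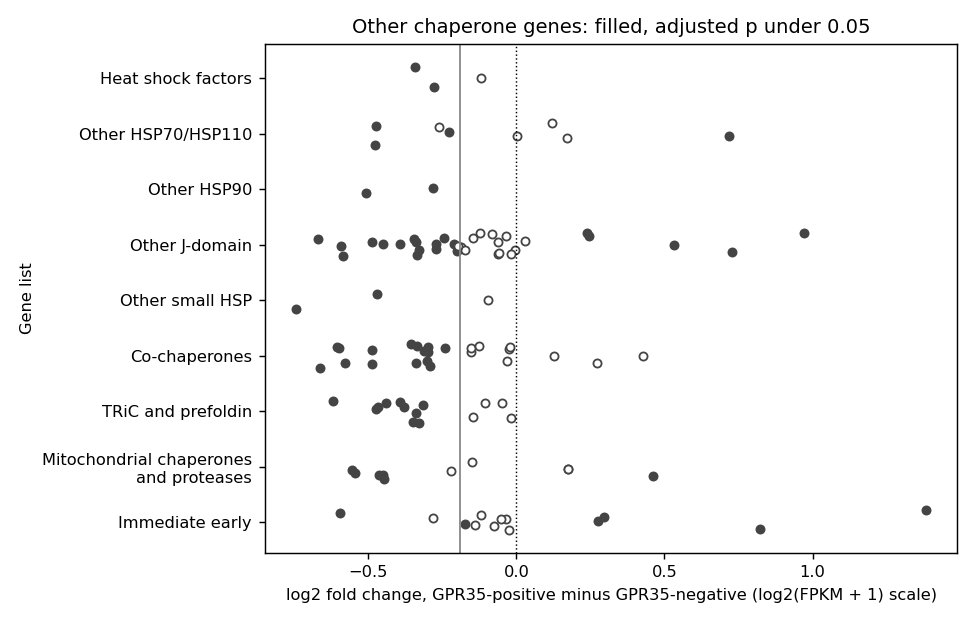
Log2 fold change, GPR35-positive minus GPR35-negative, of every tested gene in 9 lists of the heat shock system and of immediate early genes; filled points passed an adjusted p of 0.05, the grey line is the median of all genes tested (−0.19), and vertical scatter within a list has no meaning. Co-chaperone, TRiC and prefoldin genes that passed lie to the left of 0 on the deposited scale, though not all with median-of-ratios scaling, and Dnajb9 (0.97) and Nr4a1 (2.63-fold) stand farthest to the right.

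Over the 6 libraries, the genes whose log2(FPKM + 1) followed Hspa1a most closely were Lipa, Ptk2b, Sema4d, Arl8b and Pik3ap1, with a Pearson r of 0.9994 to 0.9999. Lipa, which encodes lysosomal acid lipase, was at 35.3 FPKM in GPR35-positive and 18.4 FPKM in GPR35-negative libraries, and Ptk2b, a cytoplasmic tyrosine kinase, at 8.63 FPKM in GPR35-positive and 1.04 FPKM in GPR35-negative libraries. The 5 genes most like Hspd1 were Hbegf, Alg2, Eva1c, Dgcr6 and Pabpc1; Hbegf was at 105 FPKM in GPR35-positive and 151 FPKM in GPR35-negative libraries. With 6 libraries in 2 groups, 744 other genes had an r of at least 0.99 with Hspa1a and 94 with Hspd1, and the points share the split into 2 groups.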

How the data were processed

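Gene-level FPKM for the 6 libraries were used as deposited by the authors, per the file headers. Among tools, with no role stated, the submitters' processing notes list HTSeq 0.9.1, DESeq 1.38.3, HISAT2 2.1.0 and fastp 0.22.0. They also list the human build GRCh38, although the gene IDs are mouse, and no source used here names the annotation. Symbols, positions and exon lengths came from GENCODE M21 (GRCm38), which matched 21902 of 21959 IDs. With those lengths 97.7% of FPKM above 0 were whole reads within 0.02 reads, which gave reads per gene and library. Replicates differed by more than sampling noise (mean chi-square per gene 4.49 to 18.0).

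The test was limma-trend (limma 3.58.1, R 4.3.3) on log2(FPKM + 1), two-sided, over the 10060 genes that reached 1 FPKM in 3 or more libraries, with Benjamini-Hochberg adjustment over all of them at 0.05. It was tested on simulated data in which few genes changed, as many up as down. Here 68.8% of genes passed, so that simulation does not show how the test behaves on these data. Ratios used exact permutation over libraries (Python 3.11.15, numpy 2.4.6, pandas 2.3.3). Named genes are the 10 genes, up to 4 per list with the smallest p, and the 5 closest to Hspa1a and to Hspd1; Yme1l1, Gzma and genes named as below the filter or at 0 were named after their values were seen. Members and lists were chosen with earlier results of these data known. Tried as alternatives were a pseudocount of 0.1, no filter and a stricter one, limma-voom on recovered reads, median-of-ratios scaling, a replicate block and leaving out each library.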

Additional observations from a re-analysis of the deposited data

How the results depend on the processing

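Hspa1a, Hsp90ab1, Hspd1 and Hsph1 kept their direction and their call under all 12 alternatives, and Hspa1b and Hspb1 under the 11 that could test them. Hspe1 lost its call under 1 alternative and Hsp90aa1 under 8. Of the 10 genes 4 were called higher, beside 23.3% of all genes tested. Under the stricter filter of 1 FPKM in all 6 libraries the number was 2, beside 1658 of 8866 genes. That drop is by construction, since Hspa1b and Hspb1 are then not tested. With median-of-ratios scaling, the Dnajb1 log2 fold change turned to 0.0259 and that of Hspa8 to 0.0468, genes called lower over the table numbered 2401 against 4575, and calls in the chaperone and immediate early lists 42 against 67. Leaving out a library gave 3 to 4 of the 10 genes higher, Hspa1b and Hspb1 among them, and 4 to 5 lower. Over the 10060 genes tested it gave 2176 to 2362 higher and 3900 to 4558 lower. The log2 ratios of Hspa1a plus Hspa1b to Hspa8 then differed by 2.59 to 2.85. Those of Hsp90aa1 to Hsp90ab1 differed by 0.77 to 0.94, and those of Hspe1 to Hspd1 by 0.0601 to 0.170. The labels do not state whether same-numbered libraries of the groups are paired. Deviations of same-numbered libraries from their group means correlated at −0.00177, 0.400 and −0.0642, and those of differently numbered ones at −0.373 to 0.248. Taken from means of only 3 libraries, such correlations cannot decide whether the libraries are paired. With the replicate block 4 genes were higher and 4 lower, over all genes 2365 and 4633, and the 3 ratios differed by 2.73, 0.88 and 0.10. Whole reads limit Hspa1b and Hspb1, which rest on 11 to 77 reads per library.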
